A study of Arabidopsis thaliana with 12 samples.

Results

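The transcripts of 3 nuclear genes that serve the chloroplast NADH dehydrogenase-like (NDH) complex were followed in Arabidopsis thaliana, in the mutant psah2 and in the wild type (WT). They are NdhS (AT4G23890), PIFI (AT3G15840) and CRR21 (AT5G55740). Each was read through the only array probe that the platform annotation gives to that gene and to no other. The 3 genes are among 689 that have such a probe, through 3 probes out of 692 with exactly 1 gene and out of 3439 in all. The psah2 plants lack the photosystem I protein PSI-H2, per the labels, and both lines are of the Columbia 0 ecotype. Total RNA was hybridised to 12 arrays, 6 of psah2 and 6 of WT, with 1 value per probe and array. Tissue, age, light and growth conditions of the plants are not given in the sources used here, nor is whether the 6 arrays of a group came from separate plants. The p-values therefore measure the spread between arrays, which may be technical.

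The NDH complex sits in the thylakoid membrane and takes electrons from ferredoxin, on the acceptor side of photosystem I, back to the plastoquinone pool. This cyclic route adds to the proton gradient without making NADPH, and it runs beside the route that depends on PGR5. In Arabidopsis the complex docks to photosystem I, whose small subunit PSI-H lies at the side where light-harvesting complex II binds during state transitions. NdhS, also called CRR31, is the nuclear-encoded subunit that provides the high-affinity binding site for ferredoxin. PIFI is a stromal protein, named after the rise of chlorophyll fluorescence after illumination that is lost without it, and it acts in NDH-dependent electron flow without being a known subunit. CRR21 is a pentatricopeptide repeat protein that is needed to edit a site in the plastid transcript of ndhD, which encodes a membrane subunit of the complex.

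The 2 sets of arrays differed in overall brightness, so each change had to be read against the other probes. Median deposited intensity lay between 0.0904 and 0.0995 on the 6 psah2 arrays and between 0.304 and 0.379 on the 6 WT arrays. Probes listed at 0 made up 20.1% to 22.5% of a psah2 array and 13.0% to 13.7% of a WT array. Neighbouring replicate numbers also resembled each other. The median absolute log2 difference between replicates 1 and 2, 3 and 4, or 5 and 6 was 0.228 to 0.240 in psah2 and 0.132 to 0.157 in WT, against at least 0.396 in psah2 and at least 0.245 in WT for the other pairs of the same group. The labels do not say whether such neighbours are repeats of 1 plant sample. No probe names PSAH2 alone, and none of 12 marker genes of green leaf, seed or root cells had a probe of its own, so neither the mutant label nor the tissue was checked by its transcripts.

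NdhS, the ferredoxin-binding subunit, was lower in psah2 on every array in the values as deposited. Its intensity ran from 1.82 to 2.57 with a median of 1.99 on the psah2 arrays, and from 5.06 to 6.95 with a median of 6.26 on the WT arrays. The highest psah2 array thus stayed below the lowest WT array. The means were 2.13 ± 0.31 in psah2 and 6.11 ± 0.79 in WT (SD, n = 6 each), a ratio of WT over psah2 of 2.87 (exact permutation test, 2-sided, p = 0.00216, the smallest p that 6 against 6 allows). Separation of this kind was common, since 66.4% of all tested probes were lower in psah2 without overlap as deposited.

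**Figure D1:**
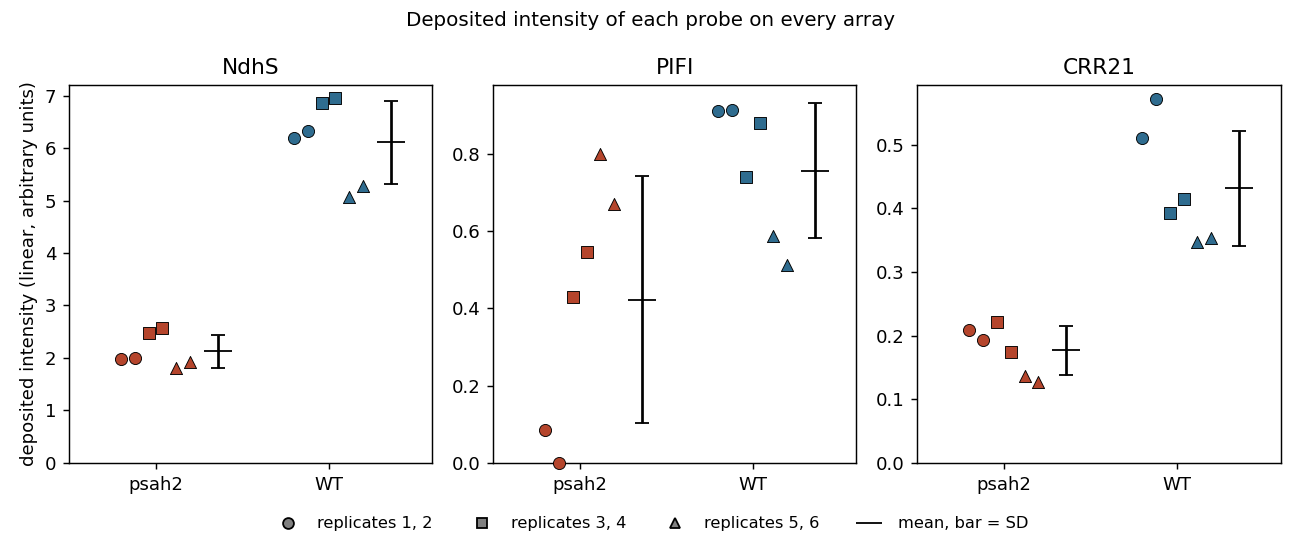
Deposited intensity (vertical axis, linear, arbitrary units, starting at 0) of the NdhS, PIFI and CRR21 probes on the 6 psah2 and 6 WT arrays, with symbols for neighbouring replicate numbers, and the mean with SD beside each group. NdhS and CRR21 are separate between the groups, while the PIFI values of psah2 run from 0 to 0.799 and overlap those of WT.

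After quantile normalization, which gives all arrays the same distribution of values, NdhS fell by 1.63 on the log2 scale (SE 0.11, 95% confidence interval -1.87 to -1.40, 3.10-fold, limma, Benjamini-Hochberg adjusted p = 6.91e-08 over 2643 probes). In this fit 61.5% of the tested probes were called and 36.2% were called lower in psah2, so a call alone does not set NdhS apart. Its size was further out, as 9.16% of the tested probes had a lower log2 change. NdhS was a bright probe in both lines. Its rank within the array needs no scaling. Quantile normalization also works from ranks, so the rank is not a separate line of support. Its rank averaged 95.4% ± 0.5 on the psah2 arrays, the highest at 96.2%, and 98.2% ± 0.2 on the WT arrays, the lowest at 98.02% (SD, n = 6 each), again without overlap (exact permutation test, p = 0.00216). Across all tested probes 25.4% were lower in psah2 without overlap after normalization. The difference held in each set of neighbouring numbers, with normalized log2 differences of -1.66 for replicates 1 and 2, -1.64 for 3 and 4 and -1.59 for 5 and 6. With neighbouring replicates averaged, 3 values against 3, the adjusted p was 0.00151 (limma), where 25.8% of the probes were called lower.

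**Figure D2:**
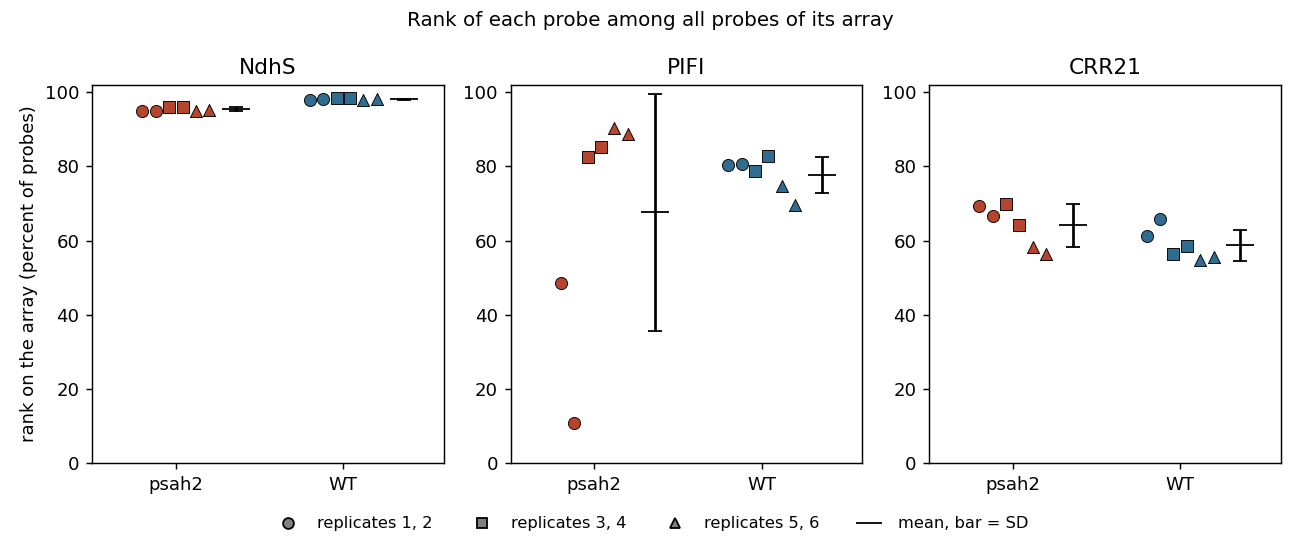
Rank of each probe among all 3439 probes of its array (vertical axis, percent) on the psah2 and WT arrays, with mean and SD beside each group. NdhS ranks lower on every psah2 array than on any WT array, by a mean of 95.4% against 98.2%, and PIFI spreads from 10.7% to 90.4% within psah2.

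The call for NdhS depended on how the arrays were brought to 1 scale. When each array was only centred on its median, the log2 change was -0.096 (95% confidence interval -0.36 to 0.17, limma, adjusted p = 0.508). Over all tested probes the median deposited log2 change was -1.64, and 53.7% of the probes had a lower one than NdhS. That shift was not even across brightness. Tested probes were split into 10 equal classes by mean normalized level. The median deposited log2 change was -2.08 in the dimmest class, while in the brightest class, of 265 probes with NdhS among them, it was -0.26. NdhS, at -1.52, had a lower deposited change than most of its class, where 21.9% of the probes were lower still. Centring on the median moved the brightest class to a median log2 change of 1.17, while quantile normalization left it at -0.20. In the deposited values NdhS was thus lower than most probes of like brightness and close to the middle of all tested probes.

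**Figure D3:**
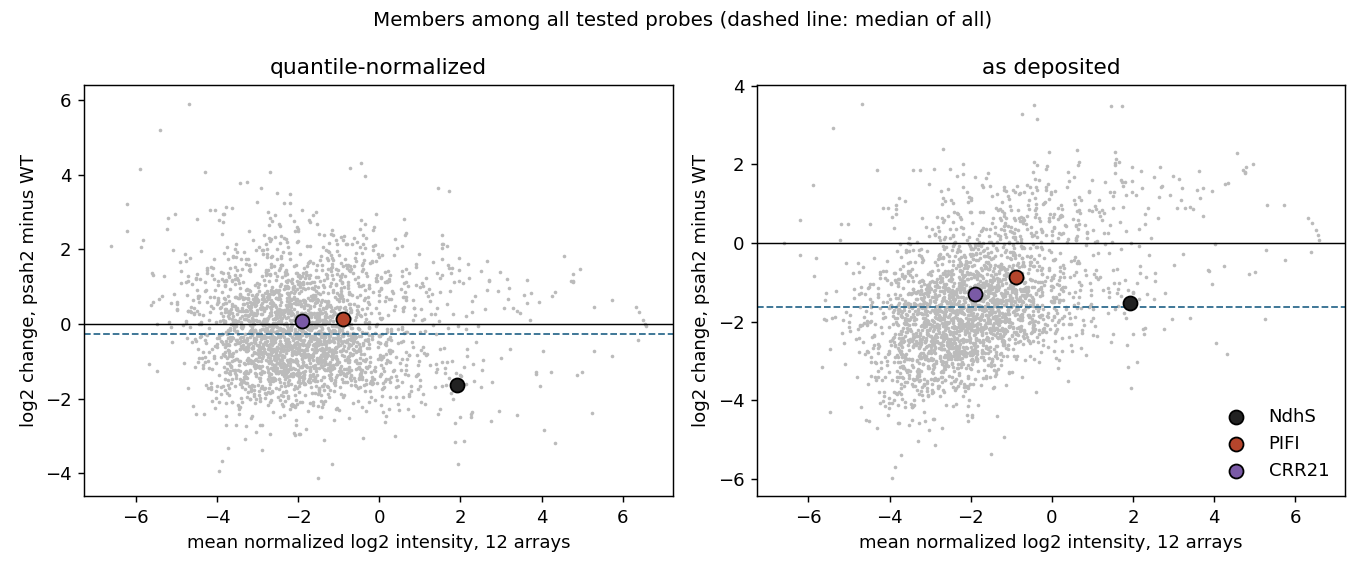
Log2 change of psah2 minus WT (vertical axis) against mean normalized log2 intensity over 12 arrays (horizontal axis) for the 2643 tested probes, in grey, with NdhS, PIFI and CRR21 marked, after quantile normalization (left) and as deposited (right). The dashed line is the median of all tested probes, -0.26 on the left and -1.64 on the right, and bright probes lie above it on the right while NdhS stays near it.

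PIFI, the stromal accessory protein of NDH-dependent flow, did not pass the test, and its psah2 arrays were not alike. Its deposited intensity on the psah2 arrays was 0.0862 and 0 in replicates 1 and 2, 0.430 and 0.546 in replicates 3 and 4, and 0.799 and 0.671 in replicates 5 and 6. The WT arrays read 0.910 and 0.912 in replicates 1 and 2, 0.739 and 0.880 in replicates 3 and 4, and 0.586 and 0.511 in replicates 5 and 6. The psah2 arrays of replicates 1 and 2 were far below every WT array, and those of replicates 5 and 6 were above their WT counterparts. The means were 0.422 ± 0.319 in psah2 and 0.756 ± 0.175 in WT (SD, n = 6 each, exact permutation test, p = 0.0541).

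On the normalized scale, where the psah2 array at 0 drops out, the log2 change of PIFI was 0.13 (SE 0.42, 95% confidence interval -0.79 to 1.05, n = 5 psah2 and 6 WT arrays, limma, adjusted p = 0.795). This interval covers sizeable changes in either direction, so a moderate change was not detectable with these arrays. Within neighbouring numbers the normalized log2 difference was -1.86 for replicates 1 and 2, 0.095 for 3 and 4, and 1.25 for 5 and 6. Differences of mixed sign across the 3 sets were found for 27.3% of the 2512 tested probes with a value in each set. The distance between the largest and the smallest of the 3 differences was 3.11 for PIFI, wider than in 96.5% of these probes. In psah2 the PIFI probe ranked at 48.4% and 10.7% of the array in replicates 1 and 2 and at 82.4% to 90.4% in the other 4, against 69.6% to 82.7% in WT. Without psah2 replicate 1 the log2 change became 0.58 and passed the test (limma, adjusted p = 0.0304), and as deposited it was -0.87 (adjusted p = 0.122), so no direction is given for this gene.

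**Figure D4:**
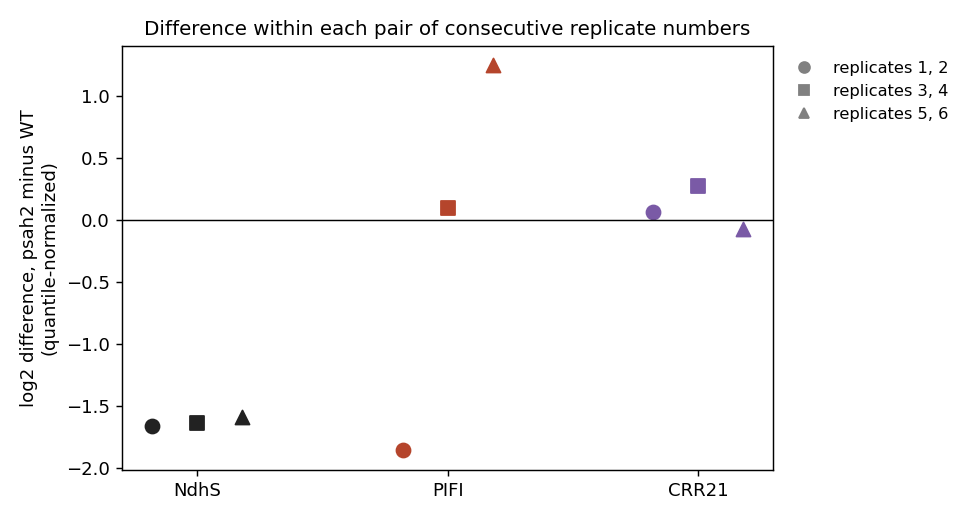
Normalized log2 difference of psah2 minus WT (vertical axis) for NdhS, PIFI and CRR21, computed within replicates 1 and 2, 3 and 4, and 5 and 6; 1 point stands for 1 set of neighbouring numbers. The NdhS points lie together between -1.66 and -1.59, the CRR21 points lie around 0, and the PIFI points run from -1.86 to 1.25.

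CRR21, the editing factor of ndhD, was lower in psah2 in the deposited values, and not relative to the other probes. Its deposited intensity ran from 0.127 to 0.222 with a median of 0.183 on the psah2 arrays, and from 0.347 to 0.572 with a median of 0.403 on the WT arrays, without overlap. Of all tested probes, 66.4% were likewise lower in psah2 without overlap. The means were 0.177 ± 0.039 in psah2 and 0.432 ± 0.090 in WT (SD, n = 6 each, exact permutation test, p = 0.00216). The deposited log2 change of -1.29 (SE 0.18, limma, adjusted p = 3.07e-05) was a smaller fall than that of the median probe, and 77.5% of all tested probes were called lower in these values.

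No change of CRR21 passed the test once the arrays were brought to 1 scale. After quantile normalization its log2 change was 0.085 (SE 0.14, 95% confidence interval -0.23 to 0.40, limma, adjusted p = 0.623). With median-centred arrays the log2 change was 0.13 (adjusted p = 0.476) and with cyclic loess 0.30 (adjusted p = 0.115). Its rank on the array ran from 56.3% to 70.0% in psah2 and from 54.8% to 65.8% in WT, and the groups overlapped (exact permutation test, p = 0.0952). Within neighbouring numbers the normalized differences were 0.064 for replicates 1 and 2, 0.27 for 3 and 4 and -0.078 for 5 and 6.

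**Figure D5:**
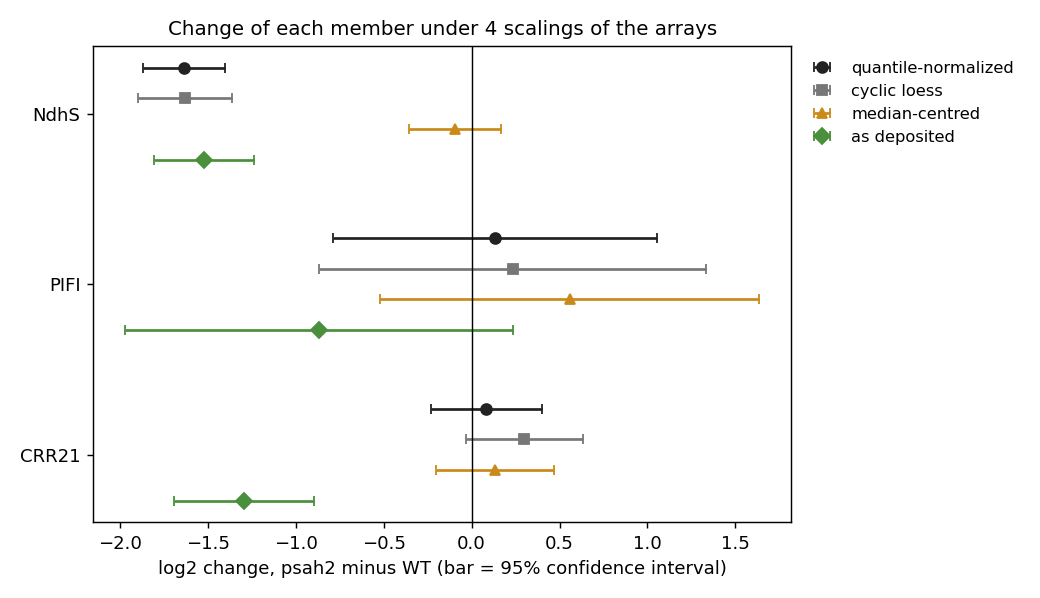
Log2 change of psah2 minus WT (horizontal axis) with its 95% confidence interval for NdhS, PIFI and CRR21 under 4 scalings of the arrays. NdhS lies between -1.63 and -1.52 under 3 scalings and at -0.096 with median-centred arrays, CRR21 lies near 0 except as deposited, and the PIFI intervals include 0 under each of the 4.

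Whether the members changed unequally was asked on the same arrays, by taking the log2 difference between 2 probes within each array, for 3 pairs. The permutation tests take each array as a separate unit, although neighbouring replicate numbers resembled each other. On the normalized scale the CRR21 to NdhS difference was 1.72 higher in psah2 than in WT, without overlap between the groups (exact permutation test, 2-sided, p = 0.00216, adjusted over the 3 pairs p = 0.00649). The PIFI to NdhS difference was 1.74 higher in psah2, with overlapping groups (exact permutation test over 5 and 6 arrays, p = 0.0173, adjusted p = 0.0260), and this call was lost without psah2 replicate 3, 4, 5 or 6 (adjusted p = 0.0571 each). With signs flipped within equal replicate numbers neither passed, at an adjusted p of 0.0938 for CRR21 to NdhS and 0.188 for PIFI to NdhS (exact tests), where the 5 numbers with a PIFI value allow no p below 0.0625. The PIFI to CRR21 difference changed by 0.074 (exact permutation test, adjusted p = 0.935). In the values as deposited, where any factor common to an array cancels, none of the 3 passed. The CRR21 to NdhS difference was then 0.23 higher in psah2 (exact permutation test, adjusted p = 0.390), the PIFI to NdhS difference 0.64 higher (adjusted p = 0.390) and the PIFI to CRR21 difference 0.46 higher (adjusted p = 0.524). An unequal change of NdhS and CRR21 therefore appeared with the level-dependent correction and not with a common factor per array.

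The other genes of the pathway were sparsely covered. Of 71 genes listed for the NDH subunits, their assembly, the RNA factors of ndh transcripts and the PGR5 route, 8 had a probe of their own, the 3 members included. Of these 8 genes, 5 could be tested, of which 2 were called lower in psah2, none was called higher and 3 did not pass, while 36.2% of all tested probes were called lower and 25.2% higher. The median normalized log2 change of the 5 was -0.59, against -0.26 over all tested probes and -0.41 over those with 1 gene. The order turned as deposited, with -1.52 for the 5 against -1.64 for all, and with median-centred arrays, with -0.096 against -0.21. These medians were not compared under cyclic loess. The second gene called lower, beside NdhS, was Cpn60beta4 (AT1G26230), a chaperonin subunit needed to fold the NdhH subunit.

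Cpn60beta4 had deposited intensities of 0.0147 to 0.0565 on the psah2 arrays and 0.299 to 0.383 on the WT arrays, without overlap. As deposited 66.4% of all tested probes were lower without overlap. Its psah2 values were dim, at ranks of 24.2% to 39.4%, where up to 22.5% of the probes were at 0. Its normalized log2 change was -1.34 (SE 0.27, limma, adjusted p = 0.000973, 36.2% of probes called lower). It was also called with median-centred arrays (log2 change -1.70, limma, adjusted p = 0.000329, 31.2% of probes called lower). With neighbouring replicates averaged the call stayed (limma, adjusted p = 0.00815, 25.8% of probes called lower). Median centring also lowers dim probes, and the level class of Cpn60beta4 had a median-centred median of -0.60, against 1.17 in the class of NdhS. AT5G59400, put on the PGR5 list from general knowledge and without a symbol in the RefSeq table, had a normalized log2 change of -0.59 (SE 0.43, limma, adjusted p = 0.251) over 5 psah2 and 6 WT arrays above 0.

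Probes of 3 further genes had fewer than 4 values above 0 in a group and were not tested in the main comparison. NdhN (AT5G58260), a stroma-exposed subunit of the complex, reached at most 0.0564 on the psah2 arrays, 2 of them at 0, and at most 0.0235 on the WT arrays, 3 of them at 0. With a minimum of 2 values per group NdhN was called higher in psah2, the opposite direction to NdhS. In that setting 693 probes were called higher and 1010 lower. Calls in this direction were common, as 25.2% of the 2643 probes of the main comparison were called higher. The NdhN change was 3.08 on the normalized log2 scale over the 4 psah2 and 3 WT arrays above 0 (SE 0.66, limma, adjusted p = 0.00572). On these arrays its deposited values overlapped, at 0.00818 to 0.0564 in psah2 and 0.0149 to 0.0235 in WT. Quantile normalization set them at -5.61 to -3.21 in psah2 and -8.45 to -6.54 in WT. With neighbouring replicates averaged the NdhN change was 2.93 (limma, adjusted p = 0.0112). Only psah2 replicates 1 and 2 were both above 0, and each other set rested on a single array, so this is not a separate check. With values at 0 set to a floor it was not called (adjusted p = 0.146), and its deposited intensities overlapped between the lines. CRR41 (AT1G51100), an assembly factor of the stroma-exposed arm, was listed at 0 on 4 psah2 arrays and on all 6 WT arrays. OTP85 (AT2G02980), another editing factor of ndhD, was listed at 0 on 5 psah2 arrays and on all 6 WT arrays.

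Photosystem I itself, to which the NDH complex docks, had 1 of 17 listed genes with its own probe. That gene, PSAN (AT5G64040), for the lumenal subunit near the plastocyanin side, went the other way from NdhS. Its deposited intensity was 11.7 ± 0.9 in psah2 and 4.33 ± 0.70 in WT (SD, n = 6 each), without overlap. Its normalized log2 change was 1.17 (SE 0.12, limma, adjusted p = 4.00e-06), where 25.2% of the tested probes were called higher. As deposited 251 of 2643 tested probes were called higher, and the share higher without overlap was not counted. The NdhS and PSAN probes both lie at the bright end of the arrays, PSAN at mean ranks of 98.8% in psah2 and 97.3% in WT.

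Some probes with 1 gene had profiles close to those of the members over the arrays. Likeness was measured as the root mean square difference of normalized log2 values after each profile was centred on its own mean, among probes above 0 on all 12 arrays. Nearest to NdhS were AT3G04650 at 0.157, AT5G62840 at 0.166 and XERICO (AT2G04240) at 0.204, against a median of 0.821 over the 421 probes compared. Their log2 changes were -1.72, -1.55 and -1.75, near that of NdhS by the way they were chosen. These 3 came from level classes with median-centred medians of 0.16 to 0.31. With median-centred arrays their log2 changes were -0.82, -1.08 and -0.85. No p-values are given for them, as the probes were chosen on the same arrays for a profile like that of NdhS. Nearest to CRR21 were AT2G03200 at 0.153, AT1G32190 at 0.192 and AT4G20300 at 0.196, against a median of 0.643. None of these CRR21 neighbours passed the test, which also follows largely from the choice. For PIFI, compared over the 11 arrays above 0, the nearest were AT5G40470 at 0.474, AT1G07850 at 0.478 and AT5G06990 at 0.493, against a median of 0.878. The profile of PIFI thus had no neighbour as close as those of NdhS and CRR21.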

How the data were processed

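Each sample title gives its group and replicate number. The authors deposited 1 intensity per probe and array, on a linear scale from 0 to 100. The scanner, background correction and scaling behind them are not given in the sources used here. Neither medians nor sums of the arrays lay within 5% of each other, so values were log2-transformed, with values at 0 left missing, and quantile-normalized. Probes with at least 4 values in each group were tested, 2643 of 3439, by a limma 3.58.1 fit (lmFit, eBayes) under R 4.3.3 without covariates, 2-sided, with Benjamini-Hochberg adjustment over all tested probes and a threshold of 0.05. A true difference in total signal between the lines would be lost in the quantile normalization. Exact permutation tests used scipy 1.17.1. The small number of arrays limits the precision.

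Probes were named from the platform annotation through a RefSeq table of TAIR10.1. Of the 3439 probes, 692 had 1 gene, 690 of them with a locus. Probes with several genes were not named. Of the listed genes, 13 had no entry in the table, 12 of them plastid NDH loci, and were not analysed here. Named genes are the members, each listed gene with a 1-gene probe, and for each member the 3 nearest profiles. Members and lists were chosen with earlier results of these data known. The 10 classes of brightness, the sets of neighbouring replicate numbers and the block of 3 were chosen after the data were seen. The fit was checked on simulated data.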

Additional observations from a re-analysis of the deposited data

Results flagged for a closer look

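A gap test was run on 31 groups of arrays of the named genes, and chance passes about 1 in 20 groups. In 2 groups an array stood apart. For Cpn60beta4 (AT1G26230), psah2 replicate 6 lay below the other psah2 arrays (gap over range 0.643, normalized log2 -4.98 against a mean of -3.46 for the others). For PSAN (AT5G64040), psah2 replicate 6 lay above them (gap over range 0.644, normalized log2 3.51 against a mean of 3.25). For NdhS, PIFI and CRR21 no array of either group stood apart by this test, the psah2 arrays of PIFI included, of which the 5 above 0 were tested.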

How the results depend on the processing

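NdhS kept its direction under the 12 other settings and without each array in turn (log2 change -1.68 to -1.58), and lost its call with median-centred arrays (-0.096). With the replicate number as a block it stayed at -1.63 (limma, adjusted p = 1.73e-05), and neither the fixed nor the random block changed a call for the 3 members. The labels state no pairing, so the numbers were not treated as pairs in the main tests. Same-numbered arrays of the 2 lines had residual correlations of 0.056 to 0.17, over 0.1 for 4 of 6 numbers. Arrays of different numbers reached at most 0.086. Each of the 12 arrays had its highest residual correlation across the lines with the array of its own number. PIFI turned to -0.87 as deposited and to -2.50 with values at 0 set to a floor (which brings in the psah2 array at 0). With neighbouring replicates averaged PIFI turned to -0.17. There psah2 replicate 1, as the only value above 0, stands alone for replicates 1 and 2 and so weighs more. PIFI ranged from -0.088 to 0.58 without single arrays, negative without psah2 replicate 5 or 6 and called without psah2 replicate 1 (limma, adjusted p = 0.0304). Within replicates 1 and 2 it was -1.86 and within 5 and 6 it was 1.25. CRR21 turned to -1.29 as deposited and ranged from 0.030 to 0.16 without single arrays. Of all probes, 667 were higher and 958 lower in psah2, and 251 and 2049 as deposited; without single arrays the counts were 620 to 659 and 873 to 926. The CRR21 to NdhS difference went to 0.23 as deposited and ranged from 1.64 to 1.80 without single arrays. With sign flips within equal numbers it was 1.72 (exact test, p = 0.0312, the smallest that 6 numbers allow, adjusted p = 0.0938). That setting could not pass the threshold after adjustment, whatever the values. The PIFI to NdhS difference went to 0.64 as deposited, ranged from 1.49 to 2.16 without single arrays, and lost its call without psah2 replicate 3, 4, 5 or 6 (adjusted p = 0.0571). The PIFI to CRR21 difference ranged from -0.21 to 0.61 without single arrays and was -0.28 with neighbouring replicates averaged. The cause of the turns as deposited was not tested. Over all tested probes the median deposited log2 change was -1.64. With only probes above 0 on all arrays PIFI gave no value. Values near 0 limit PIFI, NdhN, CRR41 and OTP85, and Cpn60beta4 in psah2.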
